A study of Mus musculus with 8 samples.

Results

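The genes described here are the protein-coding genes on mouse chromosomes 7 and 13 whose symbol is Zfp followed by a number. This rule found 130 of the 21887 protein-coding genes of the build GRCm38.p6, 93 on chromosome 7 and 37 on chromosome 13. ATAC-seq, an assay that cuts and tags open chromatin with Tn5, was run on FUCCI2 induced pluripotent stem cells, a clonal mouse line with a pair of fluorescent reporters of the cell cycle. The 8 libraries, each from 50000 cells, formed 4 groups of 2: mitotic cells collected by shake-off following nocodazole arrest (200 ng/ml, 6 hours), cells 1 hour and 3 hours after release from it, and untreated asynchronous cells. All groups share the line, the irradiated feeder cells and a medium with FBS, LIF and the 2 kinase inhibitors known as 2i, against GSK3 and MEK. The line is 1 clone, and nothing in the labels says that the 2 libraries of a group came from separate cultures. The data are a single series-wide list of 76872 accessible regions, without a value per library, so nothing below compares the groups and the depth of the libraries is unknown. In which libraries a region was open was not analysed here.

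Most genes with such symbols encode proteins with tandem zinc fingers, each a short fold around a zinc ion that reads a few bases of DNA. Many of them in the mouse also carry a KRAB domain, which recruits the corepressor Trim28 and the methyltransferase Setdb1 to the bound site, and in pluripotent cells such proteins are known for silencing retrotransposons. The family grows by tandem duplication, so its genes stand in clusters of near relatives. The symbol rule is not limited to this class: Zfp36 encodes an RNA-binding protein of another finger type, Zfp346 a protein that binds double-stranded RNA, and Zfp143 an activator that binds many gene starts. Protein sequences were not analysed here.

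Nearly every member carried an accessible region at an outer limit or inside the gene, and most members with a listed start had one there. A region fell within 1 kb of an outer limit, the gene's lowest or highest coordinate, in 113 of 130 members (86.9%, 95% Wilson interval 80.1 to 91.7%), against 62.0% of all protein-coding genes. A region lay inside the gene, away from these limits, in 61 members (46.9%), near the 43.2% of all protein-coding genes. Only Zfp974 and Zfp629, both on chromosome 7, had a region in neither place, so 128 of 130 (98.5%) had at least 1, against 73.6% of all protein-coding genes. Both limits were marked in 10 of 130 members (7.69%), against 8.47% of all protein-coding genes. The intervals cover counting error only, and neighbouring genes are not independent.

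A start site, with its strand, was taken from RefSeq for 116 members, and in 23 of them the start used lay over 1 kb inside the outer limit. Where a gene had several listed starts, the start used was the first with a region, if any had one. The outer limit on the start side had a region in 100 of these 116 (86.2%), against 59.0% of all protein-coding genes with a listed start. At the opposite limit it was 13 of 116 (11.2%), against 11.7% of all protein-coding genes. Of the 16 members with no region at the outer start limit, 13 had one at a listed start deeper in the gene. Counting a region anywhere in the promoter window, the 250 bases before and 50 bases from a listed start, 108 of 116 members (93.1%, interval 87.0 to 96.5%) were marked, against 57.8% of all protein-coding genes. This window was chosen as a measure after the outer limits had been examined. Of the 119 marked windows of members, 114 had a region covering the start base itself. Over all protein-coding genes 11643 windows were marked and 10533 start bases were covered. In the members the median centre lay 53 bp downstream of the start, and the median region reached from 304 bp before to 383 bp after. Marked windows are by definition touched by a region near the start, so these positions are partly set by that choice.

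**Figure D1:**
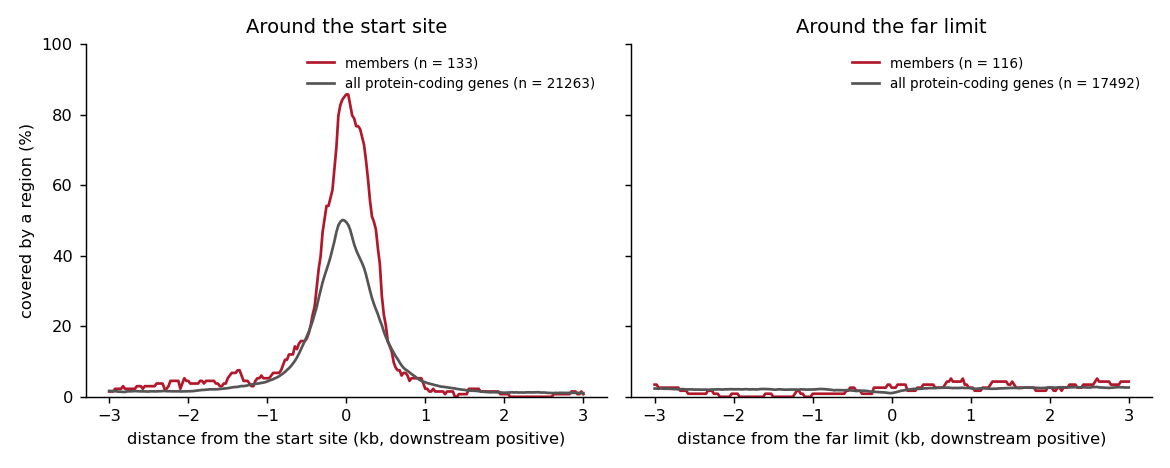
Share of start sites (left) and far gene limits (right) covered by an accessible region, in percent, by distance in kb, for members (red) and all protein-coding genes (grey). At the start site 85.7% of member starts were covered against 49.5% of all starts, while at the far limit it was 2.59% and 1.05%.

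The comparable gene sets were set beside these values without a test. Among the 267 Zfp-numbered genes on other chromosomes, 88.4% were marked at an end and 87.9% of those with a listed start had one in a promoter window, close to the members. Among the other protein-coding genes on chromosomes 7 and 13, 54.5% were marked at an end, or 65.3% when olfactory and vomeronasal receptor genes, another family of tandem clusters, were set apart. Only 10 of these 465 receptor genes (2.15%) were marked. The difference from the members was not tested. The receptor genes had a median listed length of 0.951 kb, against 15.6 kb in the members. Whether their listed limits reach the start of transcription was not examined.

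Other zinc finger symbols on chromosomes 7 and 13, such as Zscan, Zkscan and Zbtb genes, were marked at an end in 13 of 21 cases (61.9%), near the 62.0% of all protein-coding genes. Peg3, Zim1 and Zik1 on chromosome 7 were among them, and the 4 genes Zscan4b, Zscan4c, Zscan4d and Zscan4f, which are known for sporadic expression in embryonic stem cells, were among the 8 without. This count rests on the outer limits alone: Zscan18, also among the 8, had a region of 865 bp in its promoter window. Of 22 genes for partners of KRAB repression, 20 (90.9%, against 62.0%) were marked at an end, including Trim28, whose widest was 817 bp, and Setdb1, whose widest was 436 bp. Chd3 and Dnmt1 were the exceptions by the outer limits, each with 10 distal regions, and their listed starts were not examined. Ehmt2 was marked only by a region of 73 bp, the narrowest width in the list. For the cell type, 5 of 6 pluripotency markers were marked at an end, Esrrb being the exception, and 1 of 6 feeder fibroblast markers, Col1a1. The share over all protein-coding genes was 62.0%, so these few genes are a weak check, and their listed starts were not examined. The part of feeder cells in the list was not tested.

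The members formed 38 runs when neighbours up to 250 kb apart were joined. There were 11 runs of 3 or more with 98 members, 5 pairs and 22 single members. A region at an end was found for 84 of 98 members in the larger runs (85.7%) and for 29 of 32 in pairs or alone (90.6%). Each member was marked at an end in 3 of the 11 larger runs: that from Zfp628 to Zfp580, that from Zfp954 to Zfp772 and that from Zfp141 to Zfp975. With regions inside the gene counted as well, 9 of the 11 runs had every member marked, and the exceptions were the runs that hold Zfp974 and Zfp629.

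The largest run was on chromosome 13, with 23 members from Zfp712 to Zfp273 over 788 kb, positions 67038594 to 67827000. Each of the 20 members with a listed start had a region in its promoter window. The remaining Zfp87, Zfp729b and Zfp493 each had a region at an end, of 611, 743 and 910 bp. By the outer limits alone the run seemed less complete, with 18 of 23 marked (78.3%). The 5 without were Zfp708, Zfp759, Zfp595, Zfp459 and Zfp874b, and in each a listed start lay inside the outer limit, by 16.4, 6.57, 10.4, 21.9 and 1.99 kb. Their start regions were 706, 426, 511, 416 and 577 bp wide. Zfp708, which is known to repress a family of retroviral repeats, was thus accessible at an inner start, 1 of its 2 listed starts, and had no region in the window of the other.

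Regions at the ends of this run were alike in size, with a median of 582 bp and quartiles of 558 and 676 bp. Zfp457, Zfp748 and Zfp874b had start regions of the same width, 577 bp, and Zfp953, Zfp455, Zfp273 and Zfp429 had regions of 579, 584, 570 and 565 bp. Zfp712 and Zfp729a had wider ones of 1010 and 984 bp. Zfp65 was the narrowest, with 73 bp at its start, the lower limit of width in the list, and a region of 589 bp lay inside the gene 4.73 kb from the start. Of 46 regions in the span of the run, 26 lay at a member's start window or end, 1 at the end of another coding gene and 19 elsewhere. The last group was narrower, with a median of 278 bp against 577 bp. Distal regions are those over 1 kb from the ends of every protein-coding gene and within 50 kb of a limit of the member, and they may lie inside a gene. They averaged 3.83 ± 1.70 (SD, n = 23 genes), from none at Zfp455 to 7 at Zfp85 and Zfp493.

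**Figure D2:**
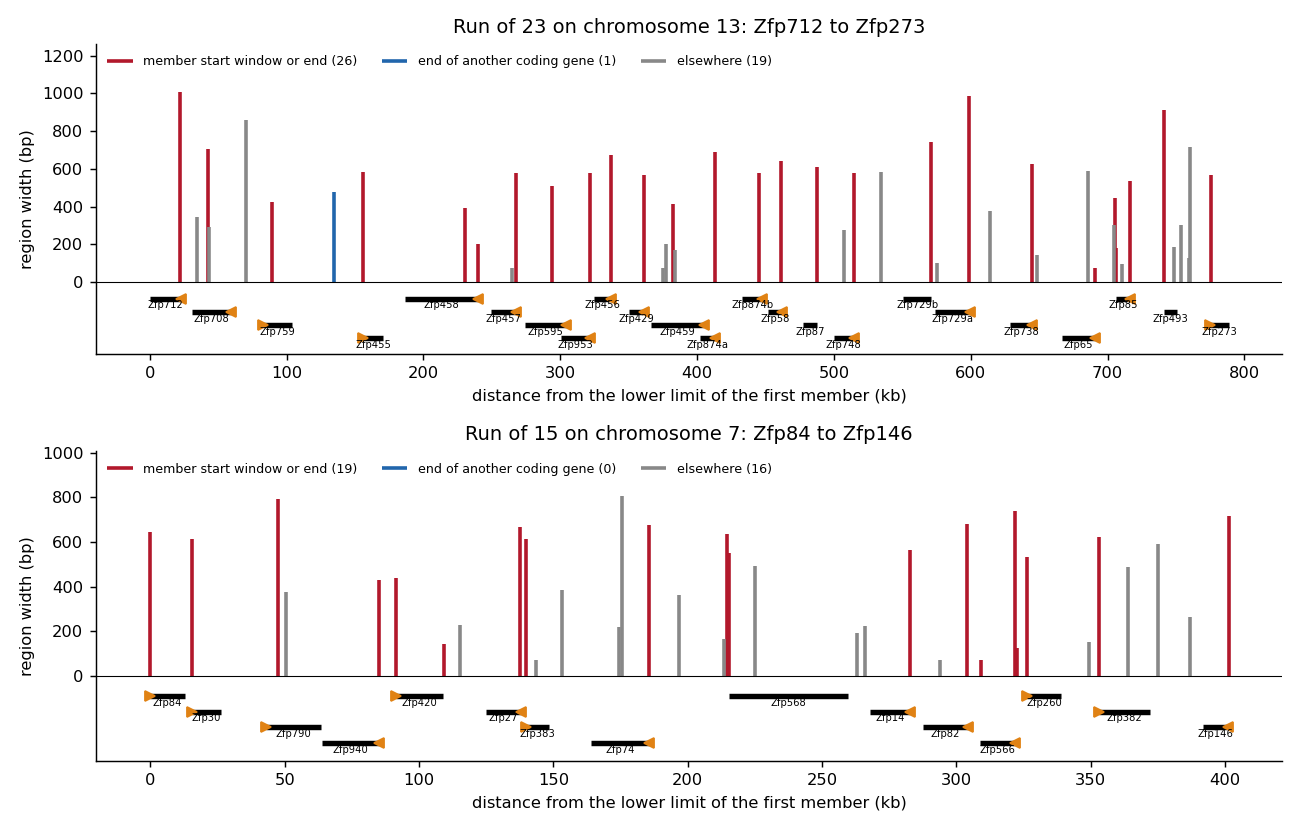
Maps of the largest run on each chromosome. Vertical lines are accessible regions, with height giving width in bp and colour giving their class, black bars are members and orange arrows their start side where listed, by distance in kb from the first member. Red lines stand over the arrows in most members, with few other wide regions: on chromosome 13, 26 of 46 regions lay at member starts or ends, and on chromosome 7, 19 of 35.

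On chromosome 7 the largest run held 15 members from Zfp84 to Zfp146 over 401 kb, with no other protein-coding gene among them. All 14 with a listed start had a region in the promoter window. Zfp568, a KRAB gene known to repress a placental Igf2 transcript, had regions of 635 and 549 bp at 1 end. Both also lay in the promoter window of another gene, Gm31735, and no start was listed for Zfp568. Zfp790 was the only member without a region at an end, and its listed start 4.63 kb inside the outer limit carried one of 791 bp. Start regions ranged from 431 bp at Zfp940 to 791 bp at Zfp790, with 646 bp at Zfp84, 614 bp at Zfp30, 666 bp at Zfp27 and 716 bp at Zfp146, a gene of a protein made almost wholly of fingers. Distal regions averaged 5.4 ± 2.1 (SD, n = 15 genes), with 11 at Zfp146 and 8 each at Zfp74 and Zfp568.

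Next in size was the run of 12 members from Zfp180 to Zfp575 on chromosome 7. An end was marked in 10 of them and the promoter window in 9 of the 10 with a listed start. Its regions at ends had a median of 378 bp and quartiles of 236 and 665 bp, with several small regions beside a wider one. By the widest region of each marked member the median was 628 bp, against 628 bp in the run of 15 and 598 bp in the run of 23. Zfp180 and Zfp94 had start regions of 915 and 750 bp, while Zfp108 had 378 bp and Zfp109 381 bp. Zfp235 had no region at its listed start, and the nearest, of 672 bp, lay 1.40 kb away inside the gene. Zfp428 had the most distal regions of the run, 12.

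The run of 8 from Zfp607b to Zfp850 was the least complete, with a region in the promoter window of 5 of 8. Zfp607b, Zfp60, Zfp780b and Zfp850 had start regions of 726, 586, 732 and 624 bp. In the middle of the run lay Zfp626, Zfp59, Zfp607a and Zfp974. Zfp59 had a narrow region of 176 bp at its start. Zfp626 had 522 bp at its outer limit, 2.32 kb from its listed start, and 99 bp at 140 bp from that start. At Zfp607a the only region at an end was 81 bp wide and lay 372 bp from the start. Zfp974 had nothing within 4.44 kb. The promoter windows of Zfp607a and Zfp607b, despite their names, were not near copies: Zfp607a aligned best with Zfp850 (218 bases, 76.1% identity) and Zfp607b with Zfp444 (38 bases), and they held 6 and 31 CpG. The sources used here do not say how reads that match several near-identical copies were treated, and the part of such reads in these values was not tested.

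The run of 10 from Zfp553 to Zfp646 lay among 22 other protein-coding genes, of which 17 were marked at an end. A region was at an end of 9 of the 10 members, with a median width of 888 bp. The neighbours Zfp668 and Zfp646 shared 1 region of 1605 bp at chromosome 7, 127875596 to 127877200. It lay in the promoter window of Zfp668, and no start was listed for Zfp646. Zfp689 had 1038 bp, Zfp768 918 bp and Zfp553 857 bp, while the neighbours Zfp747 and Zfp764 had 513 and 522 bp. Zfp629, with 3 listed starts, was the exception: the nearest region to any of them was 146 bp wide and lay 21.7 kb away. Distal regions were few, at 2.80 ± 2.78 (SD, n = 10 genes), and Zfp747 had none.

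Among the smaller runs, that of 6 from Zfp628 to Zfp580 had the widest region at an end of any member, 1714 bp at Zfp524. That region also lay in the promoter window of another gene, Fiz1, and no start was listed for Zfp524. Zfp865 beside it had 444 bp at an end and a region of 2081 bp inside the gene. A region of 782 bp lay at an end of both Zfp784 and Zfp580, in the promoter window of Zfp784 alone. In the run of 6 from Zfp787 to Zfp28, a region of 897 bp lay at the far limit of Zfp78 and in the promoter window of Zfp28, and Zfp78 had a further 1181 bp at its own start. Zfp787 had a region of 1016 bp over its inner start. Zfp583 had one of 928 bp in the window of its inner start, but 0.233 kb upstream of the start itself. The run of 5 from Zfp329 to Zfp446 had regions of 764 bp at Zfp110, a gene for a protein that binds the neurotrophin receptor p75, 792 bp at Zfp128 and 910 bp at Zfp324. Zfp446 had none at an end and 825 bp inside.

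The 4 members from Zfp954 to Zfp772 had start regions of 732, 570, 619 and 880 bp in chromosomal order. Of the 4 from Zfp141 to Zfp975, Zfp977 was split over 3 regions of 301, 426 and 201 bp at its start. The run of 5 from Zfp936 to Zfp819 had 984, 1047 and 820 bp at Zfp715, Zfp658 and Zfp719. Zfp936, whose listed start lies 63.4 kb inside its outer limit, had 641 bp there. Zfp819, which is known to be active in pluripotent cells, had a region of 241 bp in its window and 543 bp beside it.

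**Figure D3:**
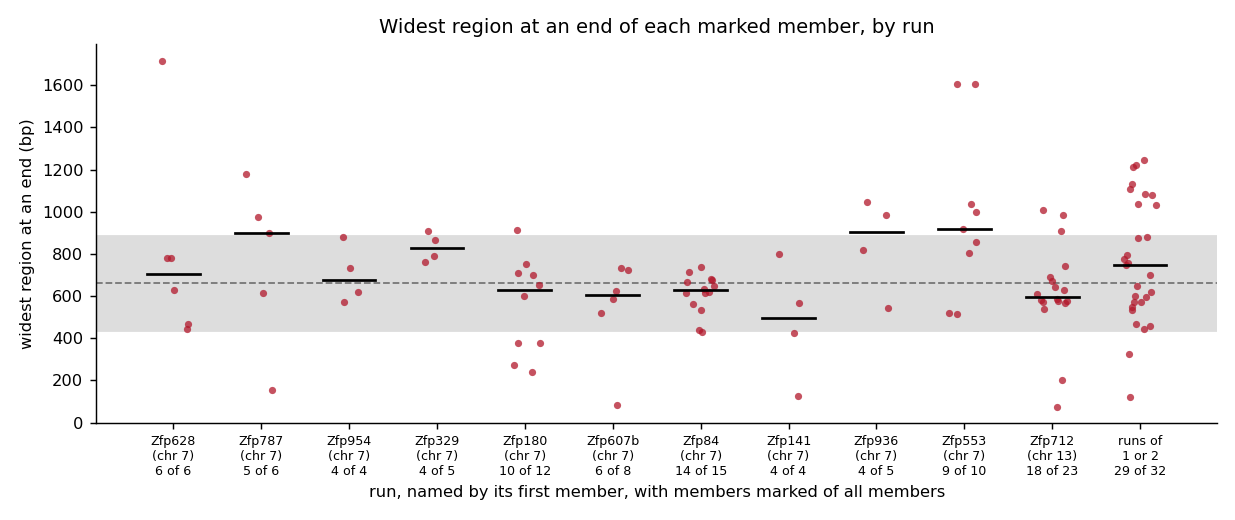
Width in bp of the widest region at an end of each marked member (points), with the median of the run (black line), by run in chromosomal order and for runs of 1 or 2. The grey band and dashed line give the quartiles and the median, 660 bp, of all marked protein-coding genes. The numbers under each run give marked of all members, and most points lie inside the band.

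Members alone or in pairs included several genes of known role. Zfp143 had a start region of 1222 bp and Zfp131, which encodes a BTB domain factor, 1132 bp. Zfp592 had 1244 bp and Zfp788 1214 bp. Zfp322a, known as a factor of pluripotent cells, had 1079 bp, and Zfp473, whose product takes part in processing histone transcripts, had 874 bp. Zfp346 had 699 bp. Zfp36, an immediate early gene, had 571 bp and 11 distal regions. Zfp296, which is known to help reprogramming to pluripotency, had a narrower start region of 327 bp and 6 distal regions.

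Some members are known from other tissues. Zfp536, a repressor of neuronal differentiation and at 456 kb the longest member, had 121 bp at its outer start limit, no region in its promoter window and 11 regions inside, the widest of 722 bp at 294 kb from the start. Zfp541, a gene of the male germ line, had 458 bp at its outer limit and none in the window of its listed start, 10.2 kb away. Zfp366, known from dendritic cells, had no region at an end and a single one of 109 bp inside. No start was listed for Zfp366. These 3 were grouped after their values were seen.

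Widths at ends were close to those of other genes in their middle and less spread. The widest region per marked member had a median of 654 bp and quartiles of 565 and 865 bp, against 660, 434 and 884 bp over all marked protein-coding genes. It reached 500 bp, a limit chosen after seeing the data, in 94 of 113 members (83.2%), against 68.3% of marked protein-coding genes. The 10 members with the widest regions were Zfp524, whose region is that at Fiz1, Zfp668 and Zfp646 with their shared region, Zfp592, Zfp143, Zfp788, Zfp78, Zfp131, Zfp367 with 1107 bp and Zfp941 with 1086 bp.

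Some regions inside the genes marked inner starts, and the median width of those in no listed window was near that of the whole list. Of 102 such regions, 18 lay in the member's own promoter window, with a median width of 549 bp. A further 83 lay in no listed window, with a median of 264 bp, against 281 bp over the whole list. Some of these lay in members with no listed start, such as Zfp865, where an inner start could not be seen. Zfp934, 62.5 kb long, had 6 regions inside and none at an end. Zfp459 had 4 inside, and Zfp607b, Zfp59, Zfp936, Zfp710, Zfp764 and Zfp708 had 3 each. Among members with a listed start, the widest regions in no window were 1211 bp in Zfp936, 950 bp in Zfp975 and 830 bp in Zfp169.

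The far ends, where the finger exons of this family usually lie, carried 14 regions at 13 of the 116 members with a listed start. This was 11.2%, against 11.7% of all protein-coding genes with a listed start. Of the 14 regions, 2 lay in the promoter window of another gene. They were 897 bp at Zfp78 in that of Zfp28 and 865 bp at Zfp329 in that of Zscan18. The widest of the others were 998 bp at Zfp771, 654 bp at Zfp93 and 445 bp at Zfp85. On chromosome 13, Zfp85 was the only member with a listed start and a region at the far limit, of 31.

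Distal regions were about as frequent as around other genes. Members had a mean of 4.77 ± 3.08 (SD, n = 130 genes) and a median of 4, the same median as all protein-coding genes, whose mean was 4.39. At least 1 lay near 128 of 130 members (98.5%), against 90.7% of all protein-coding genes, and Zfp747 and Zfp455 had none. The mean was 4.43 in runs of 3 or more and 5.81 in runs of 1 or 2. Zfp184 stood apart with 24, beyond Zfp710 with 14, Zfp428 with 12, and Zfp324, Zfp446, Zfp36 and Zfp146 with 11 each.

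The promoter windows were poorer in CpG, the dinucleotide that marks CpG islands, than other accessible promoters. The 119 member windows with a region held a median of 14 CpG (quartiles 8 and 19), against 22 (15 and 29) in the 11524 marked windows of other protein-coding genes. Their median GC content was 54.3% against 62.0%. Among windows with 5 to 9 CpG, 32 of 35 member windows had a region (91.4%, interval 77.6 to 97.0%), against 31.1% of 3126 other windows. With 10 to 19 CpG it was 94.7% against 79.0%, and with 20 or more 93.3% against 89.3%. With 4 or fewer, 5 of 11 member windows had a region (45.5%), against 5.15% of 6024 others. These shares were set side by side without a test. The 133 listed windows belong to 116 members, and windows of the same run can be near copies. They are thus not independent, and the intervals cover counting error only.

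**Figure D4:**
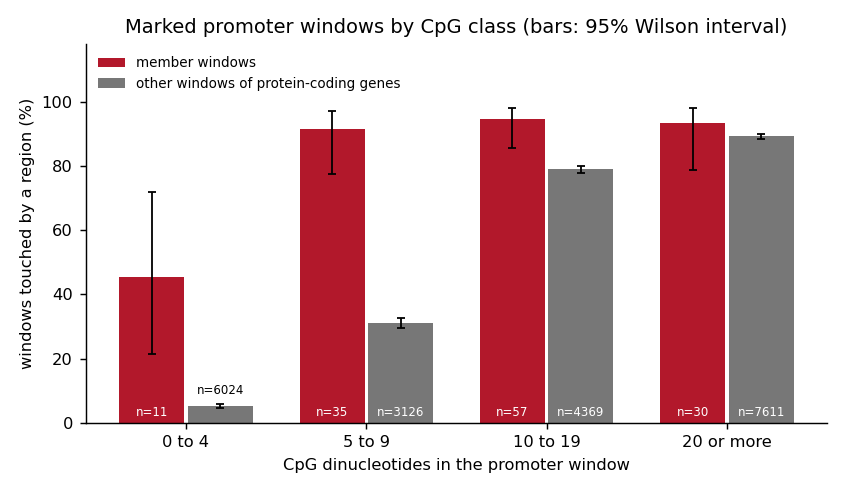
Share of promoter windows touched by an accessible region, in percent, by the number of CpG in the window, for members (red) and other protein-coding genes (grey), with 95% Wilson intervals and the number of windows in each bar. In the class of 5 to 9 CpG the member bar stands at 91.4% and the other at 31.1%. In the class of 20 or more they stand at 93.3% and 89.3%. The intervals cover counting error only, and windows of the same run are not independent.

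The range is shown by 3 promoter windows. Zfp418 is shown because its window held 2 CpG and was nonetheless covered by a region of 619 bp, from 324 bp before to 294 bp after the start. Zfp59 and Zfp974 lie on opposite strands of the same run. They are shown because their windows aligned over 225 bases with 86.7% identity, held 18 and 16 CpG, and differed in the list. There was a region of 176 bp at Zfp59 and nothing at Zfp974. Zfp59 also had regions of 260 and 393 bp at 1.09 and 1.54 kb from its start. The treatment of reads that match both copies is not stated, and their part in this difference was not tested. Capitals mark CpG, sequences are from RefSeq (GRCm38.p6), 5′ to 3′ on the gene strand, at chr7:7171103-7171402 (+), chr7:27838334-27838633 (+) and chr7:27929409-27929708 (-).
Zfp418: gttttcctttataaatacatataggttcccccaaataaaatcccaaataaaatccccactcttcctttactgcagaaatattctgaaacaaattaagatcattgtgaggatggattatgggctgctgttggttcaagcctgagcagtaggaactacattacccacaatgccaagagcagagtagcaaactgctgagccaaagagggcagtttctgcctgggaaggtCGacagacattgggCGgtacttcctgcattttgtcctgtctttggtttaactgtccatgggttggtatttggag
Zfp59: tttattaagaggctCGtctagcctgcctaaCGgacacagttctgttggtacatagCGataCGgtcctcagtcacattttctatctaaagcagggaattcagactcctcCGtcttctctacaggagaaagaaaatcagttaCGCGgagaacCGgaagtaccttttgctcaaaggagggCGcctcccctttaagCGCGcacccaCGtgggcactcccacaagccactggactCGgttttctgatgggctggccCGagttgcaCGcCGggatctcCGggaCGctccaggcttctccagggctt
Zfp974: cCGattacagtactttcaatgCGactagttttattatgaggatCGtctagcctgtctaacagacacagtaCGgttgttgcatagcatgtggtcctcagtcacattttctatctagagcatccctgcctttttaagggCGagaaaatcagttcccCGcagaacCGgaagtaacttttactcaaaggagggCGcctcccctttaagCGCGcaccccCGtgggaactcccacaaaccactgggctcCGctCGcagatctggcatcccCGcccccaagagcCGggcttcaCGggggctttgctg

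Words shared by the promoters were then counted. Of all 12-letter words, on both strands, 2 that overlap each other were the most frequent in the 133 member windows, ACTACATTTCCC and CTACATTTCCCA, each in 26 windows (19.5%), beside 0.687% and 0.602% of all 21263 windows of protein-coding genes. The first is followed here, in 26 members. It was chosen for being frequent in the members, so this excess is no test. All 26 windows had a region, beside 119 of all 133 member windows. Of all 146 windows with the word 145 had one, beside 11643 of all 21263 windows. It was present in 11 of the 20 members with a listed start in the largest run on chromosome 13 and in 9 of the 14 in the largest run on chromosome 7. Of the run from Zfp180 to Zfp575 it was in 3 of 10, of that from Zfp607b to Zfp850 in 2 of 8, and in none of the other 7 larger runs. Outside runs of 3 or more only Zfp72 had it, 1 of 28. On other chromosomes 7 of 215 Zfp-numbered genes had it (3.26%).

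The stretches below show the word in capitals with 14 bases on each side, from members of the runs that hold it, turned where needed so that the word reads the same way. They are taken from the RefSeq promoter windows of GRCm38.p6 at chr13:67081572-67081611 (+), chr13:67332586-67332625 (+), chr13:67451632-67451671 (+), chr13:67755193-67755232 (+), chr7:29768515-29768554 (-), chr7:29815954-29815993 (-), chr7:29908462-29908501 (+), chr7:30095033-30095072 (-), chr7:24254656-24254695 (-) and chr7:27731330-27731369 (+), in this order.
Zfp708: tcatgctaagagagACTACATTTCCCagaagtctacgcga
Zfp595: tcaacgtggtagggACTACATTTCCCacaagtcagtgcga
Zfp874a: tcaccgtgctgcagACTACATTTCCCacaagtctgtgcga
Zfp85: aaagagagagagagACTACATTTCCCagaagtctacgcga
Zfp84: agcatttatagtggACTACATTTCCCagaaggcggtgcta
Zfp790: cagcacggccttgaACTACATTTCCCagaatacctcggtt
Zfp383: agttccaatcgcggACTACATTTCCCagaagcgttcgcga
Zfp260: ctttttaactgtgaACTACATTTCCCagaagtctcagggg
Zfp108: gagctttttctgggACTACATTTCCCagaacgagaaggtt
Zfp60: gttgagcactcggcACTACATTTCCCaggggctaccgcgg

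The word lay just before the start. Its first base was between 178 and 14 bp upstream, with a median of 55 bp, over 27 occurrences, Zfp112 having 2. It read as the reverse complement on the gene strand in 21 of 27, including all 12 on chromosome 13, and as given in 6. Member windows with the word held a median of 9.5 CpG, while all 146 windows with it, members included, held a median of 16. By CpG, the word was in 1 of 11 member windows with 4 or fewer, 12 of 35 with 5 to 9, 12 of 57 with 10 to 19 and 1 of 30 with 20 or more.

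**Figure D5:**
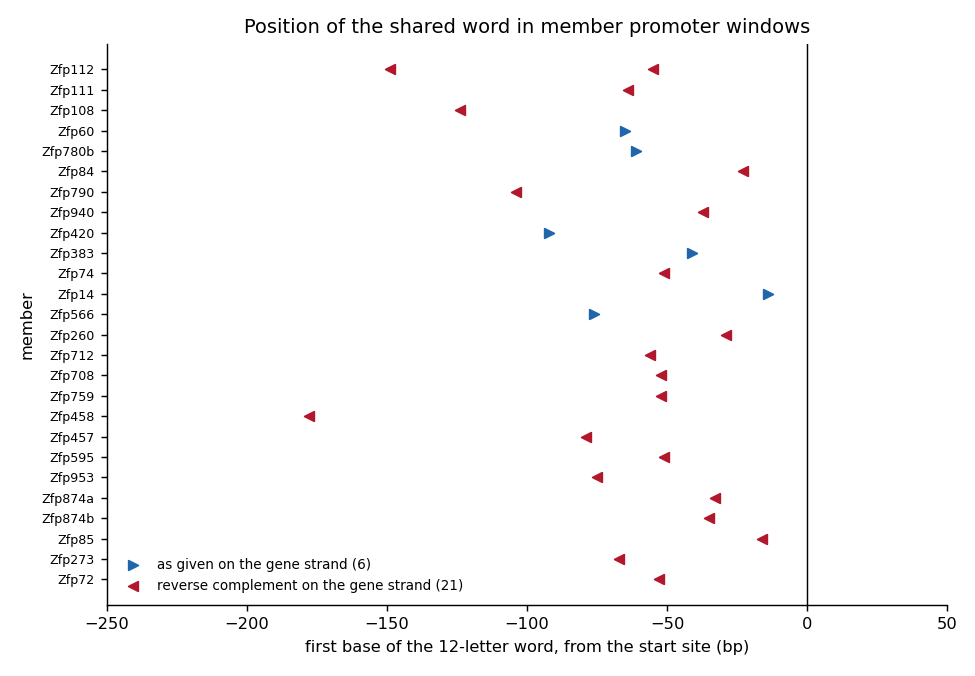
Position of the first base of the word, in bp from the start site, in each of the 26 member windows that hold it, with arrows for its orientation on the gene strand. The 27 occurrences lie between 178 and 14 bp before the start, and 21 point backwards.

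The windows of the largest run on chromosome 13 aligned with each other over longer stretches than those of the largest run on chromosome 7. Each member's first listed window was aligned with those of all other members, and the closest was kept. On chromosome 13, 19 of 20 aligned with another member over 100 bases or more, as Zfp759 did with Zfp457 (273 bases, 90.8% identity) and Zfp85 with Zfp273 (241 bases, 90.9%). On chromosome 7 none of 14 did, and Zfp383 and Zfp566, for example, aligned over 43 bases at 86.0%.

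Related and other words were counted in the same windows. The shorter ACTACA was in 54 of 133 member windows (40.6%) and in 10.3% of all windows. ACAATTCCC, letters from the element that the Zfp143 protein is known to bind, was in 7 member windows (5.26%) and 0.621% of all. Both were chosen after the 12-letter words were seen. Of known promoter elements, CCGGAAG, bound by ETS factors, was in 24.1% of member windows and 11.6% of all, GCGCATGC, from the NRF1 element, in 9.02% and 3.52%, and TGACGTCA, the cyclic AMP response element, in 7.52% and 2.23%. CCGCCC, the GC box, was in 36.1% and 46.2%, CCAAT in 42.1% and 38.2%, TATAAA in 6.77% and 12.6%, CACGTG in 6.02% and 7.84%, AAGATGGCG, bound by YY1, in 1.5% and 1.83%, and CGCG in 55.6% and 49.2%. Among windows with a region only, the shares in members and in all genes were 26.1% and 19% for CCGGAAG, 10.1% and 5.92% for GCGCATGC, and 8.40% and 3.58% for TGACGTCA. They were 38.7% and 69.1% for CCGCCC, 44.5% and 40.2% for CCAAT, 5.04% and 5.82% for TATAAA, 5.88% and 10.7% for CACGTG, and 1.68% and 3.18% for AAGATGGCG. For CGCG they were 58.0% and 76.3%, so its order turned. A match of letters is a description and not a bound site.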

How the data were processed

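Mouse FUCCI2 induced pluripotent stem cells were profiled by ATAC-seq in 8 libraries of 4 groups. The authors deposited 1 list of regions for the series, with chromosome, start and end and no count, score or signal, so the other values here are positions and widths in bp. The submitters' processing notes name cutadapt, Bowtie2, SAMtools, Picard, bedtools, MACS2 2.1.1 and mm10 without their roles. Thresholds, pooling and the treatment of reads from near-identical copies are not stated in the sources used.

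Regions were compared with RefSeq gene limits (GRCm38.p6) in Python 3.11.15 with pandas 2.3.3 and numpy 2.4.6. An overlap of 1 bp counted. A region was at an end within 1 kb of an outer limit, inside if it touched the rest of the gene, and distal within 50 kb and over 1 kb from every protein-coding gene's ends. Members up to 250 kb apart formed a run. Shares have 95% Wilson intervals. Words were matched exactly on both strands of 300-base RefSeq promoter windows. The counting was tested on simulated data. With no value per library no groups were compared. The members and lists were chosen with earlier results of these data known. Named genes were the members of the largest runs and of runs wholly marked, the 10 widest, the 5 with most distal and the 5 with most inside regions, those with none, and genes of known role. Other members named with values were chosen after their values were seen, so that each larger run is described.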

Additional observations from a re-analysis of the deposited data

How the results depend on the processing

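In all, 29 alternative settings of 6 results were computed, and 24 stayed within the interval of a share or within 1.5 times a mean, median or count. The share of members with a region inside the gene fell from 46.9% to 37.7% with ends taken within 2 kb, which moves regions from inside to ends, and to 37.7% with regions of at least 150 bp only. The mean number of distal regions fell from 4.77 to 2.7 with a window of 25 kb and rose to 8.88 with 100 kb. The share with a region at the start rose from 86.2% to 93.1% with listed promoter windows, an alternative added after seeing the data. The share marked at an end ranged from 82.3% to 91.5%. No paired analysis was possible because the list has no value per library. Leaving out a library was not possible for the same reason. The planned limit to members with a minimum number of fingers was not run, since protein sequences were not used here. Depth is unknown, so a missing region does not show closed chromatin.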
